A study of Mus musculus with 18 samples.

Results

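Lipid handling in striatal microglia was followed through 10 genes, chosen by symbol from the 55536 genes of the count table: Apoe and Apoc1, which encode apolipoproteins, Lpl, Fabp5, Ch25h, Abca1, Abcg1, Nr1h3, Soat1 and Plin2. Each symbol matched 1 Ensembl gene of GENCODE release M21. RNA was sequenced from cells that adhered to CD11b beads after dissociation of the striatum, in 5 WT, 3 Tyrobp-/-, 5 Q175 and 5 Q175;Tyrobp-/- samples of C57BL/6 mice, 18 in all. Q175 mice are heterozygous for a knock-in of human HTT exon 1 with an expanded CAG repeat in the mouse Htt gene, a model of Huntington's disease, and the WT and Tyrobp-/- mice carry no such allele. Tyrobp-/- mice lack Tyrobp, the signalling adaptor of TREM2 and other myeloid receptors, in every cell of the animal, so that the deletion was not restricted to microglia. The labels give the age as adult and name no treatment. The labels give the sex, female for 1 of the WT, 2 of the Tyrobp-/-, 4 of the Q175 and 2 of the Q175;Tyrobp-/- samples. Nothing in the sources pairs samples of different groups, and p-values measure the spread between these samples.

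Microglia take up lipoproteins and myelin debris and must store or export the cholesterol they receive. Apoe and Apoc1 are secreted or carried on lipoprotein particles, Lpl (lipoprotein lipase) frees fatty acids from their triglycerides, and Fabp5 carries fatty acids within the cell. Ch25h makes 25-hydroxycholesterol, an oxysterol with antiviral and inflammatory roles that also activates liver X receptors. Nr1h3 encodes the liver X receptor LXR alpha, which with RXR raises transcription of the exporters Abca1 and Abcg1 and of Apoe. Soat1 esterifies cholesterol for storage and Plin2 coats lipid droplets. Apoe, Lpl and Ch25h belong to the genes known to rise in disease-associated microglia.

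A promoter window, from 250 bases before to 50 bases after a RefSeq transcription start of GRCm38.p6, was at hand for 6 of the 10 genes (Apoe, Ch25h, Abca1, Nr1h3, Plin2 and Soat1, 9 windows). Those of Ch25h, the gene with the largest difference below, and of Abca1, a classical LXR target that did not pass the test in any comparison, are shown up to the start of the GENCODE gene. The first lies at chr19:34475165-34475398 and the second at chr4:53159896-53160145, both on the minus strand and written 5′ to 3′, and capitals mark the motifs named after them.
Ch25h: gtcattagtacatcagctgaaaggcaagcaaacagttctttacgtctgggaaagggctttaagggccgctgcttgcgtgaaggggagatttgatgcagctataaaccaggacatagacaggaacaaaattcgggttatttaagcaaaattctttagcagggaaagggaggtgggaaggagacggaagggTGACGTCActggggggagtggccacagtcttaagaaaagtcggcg
Abca1: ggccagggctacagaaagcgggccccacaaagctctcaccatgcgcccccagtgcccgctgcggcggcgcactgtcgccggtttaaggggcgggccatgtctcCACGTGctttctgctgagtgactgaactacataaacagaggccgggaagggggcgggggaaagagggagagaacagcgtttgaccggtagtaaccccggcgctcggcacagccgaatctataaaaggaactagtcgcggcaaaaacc
The capitals in the Ch25h window are the cAMP response element TGACGTCA, which begins 61 bases before the RefSeq start. This motif was added to the search after the sequence had been read, and 1.79% of 32817 windows of the same length hold it on either strand. The capitals in the Abca1 window are the E-box CACGTG, 147 bases before the start, a hexamer found in 7.15% of windows. The Plin2 window also held CACGTG, across the start itself, and the nuclear receptor hexamer AGGTCA on the opposite strand, 218 bases before the start, which 16.3% of windows hold. On both strands the LXR element was searched as 2 copies of AGGTCA in direct repeat with 4 bases between them. No window of these genes held it exactly (0.0152% of windows) or with at most 1 mismatch (0.25%). Elements with more mismatches were not searched for and may lie in these windows. Neither the PU.1 core GAGGAAGT (3.2% of windows) nor the AP-1 site TGANTCA (7.81%) was in any of them.

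The samples held between 11260410 and 29771983 counts. A normalized count is a count scaled by the TMM library size to the mean library. Tyrobp itself was between 3650 and 8130 normalized counts in the 10 Tyrobp-intact samples and between 176 and 409.9 in the 8 null samples. Every library thus matched its Tyrobp label, while the Htt genotype and the sex of the labels were not checked from the counts. All 20 microglial markers stood above 100 normalized counts in every sample. RNA of other striatal cells was present throughout and differed between samples: the astrocyte level, the geometric mean of 15 markers, was between 369 and 638 in WT, between 416 and 2059 in Tyrobp-/-, between 755 and 2470 in Q175 and between 393 and 1796 in Q175;Tyrobp-/- microglia. It was highest in Q175 replicate 14, Tyrobp-/- replicate 20 and Q175;Tyrobp-/- replicate 5. The border-associated macrophage level (10 markers) was between 25.1 and 34.8 in Tyrobp-/- and between 10.6 and 17.4 in WT samples, without overlap. The astrocyte markers were all detected in every group, with summed normalized counts from 12830 to 22630 in WT and from 14590 to 135500 in the other groups. No marker of the 8 lists was at 0 in all 18 samples, and 1 choroid and ependymal marker was at 0 in 9 or more of them. In bulk RNA of this kind, fewer cells of a type and less RNA per cell cannot be told apart.

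Levels were first compared between the genes per kilobase of exon. Apoe was the most abundant, with a mean of 178 CPM per kilobase (SD 109, n = 18), followed by Abca1 with 61.8, Abcg1 with 21.6 and Soat1 with 12.8. Each of these stood above the next gene in at least 17 of 18 samples. Fabp5 (5.70), Plin2 (4.40), Lpl (3.83) and Ch25h (2.65) were closer: Fabp5 was above Plin2 in 11 samples, Plin2 above Lpl in 12 and Lpl above Ch25h in 15, while Ch25h was above Nr1h3 (1.07) in 7 of 18 samples. Neighbours from Fabp5 to Nr1h3 thus did not keep their order from sample to sample. Apoc1 came last with 0.509 CPM per kilobase and reached 1 CPM in no sample, so that 9 of the 10 genes could be tested.

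The genes also differed in how far they varied. The highest sample exceeded the lowest 24.5-fold for Lpl, 6.99-fold for Apoe, 4.996-fold for Nr1h3 and 4.68-fold for Fabp5, against 3.26-fold for Abca1, 3.12-fold for Abcg1, 2.12-fold for Plin2 and 1.48-fold for Soat1 in CPM. Ch25h ran from 0 to 12.9 CPM and was at or above 1 CPM in 9 samples, all of them with Tyrobp. Among the samples without Tyrobp it was highest in Q175;Tyrobp-/- replicate 16, at 0.858 CPM.

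**Figure D1:**
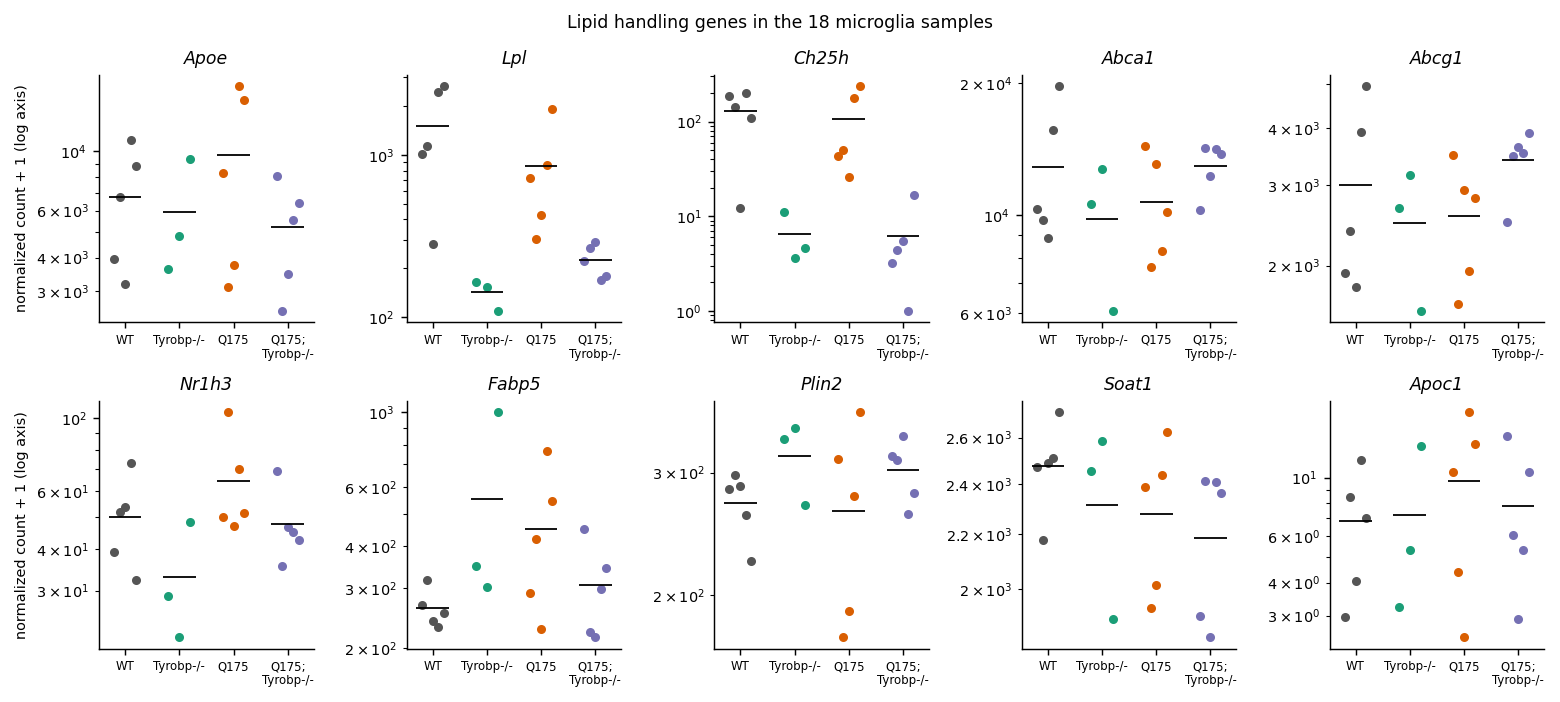
Normalized counts plus 1 (log axis) of the 10 lipid handling genes in each of the 18 samples, with the group mean as a bar. In the Lpl and Ch25h panels the samples without Tyrobp lie below those with Tyrobp of the same Htt genotype. WT replicate 6 lies below the highest Q175;Tyrobp-/- sample in both. In the other panels the groups overlap.

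Lpl and Ch25h were lower in microglia without Tyrobp, on both Htt genotypes. Lpl, the lipase, is encoded on chromosome 8 of GRCm38 from 68880491 to 68907448. WT replicates 1, 2, 6, 7 and 8 held 1005, 1131, 283, 2429 and 2659 normalized counts of Lpl, and Tyrobp-/- replicates 15, 19 and 20 held 165, 152 and 108. Q175 replicates 3, 4, 9, 14 and 17 held 720.0, 303, 426, 871 and 1914, against 220.1, 265, 289, 169 and 179 in Q175;Tyrobp-/- replicates 5, 11, 12, 13 and 16. Every null sample was below every sample of its intact counterpart, although the lowest intact value, 283 in WT replicate 6, was just under the highest value in Q175;Tyrobp-/- microglia. The group means were 1501 ± 1008 (SD, n = 5) in WT, 142 ± 29.7 (n = 3) in Tyrobp-/-, 847 ± 638 (n = 5) in Q175 and 224 ± 52.5 (n = 5) in Q175;Tyrobp-/- microglia. The coefficient of variation was 67.2% in WT and 75.4% in Q175, and 20.9% and 23.4% in the 2 groups without Tyrobp.

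Ch25h, cholesterol 25-hydroxylase, is a gene of 1387 exonic bases on chromosome 19 from 34473778 to 34475164. It was at 186, 140.4, 11.2, 201 and 108 normalized counts in WT replicates 1, 2, 6, 7 and 8 and at 10.025, 2.58 and 3.65 in Tyrobp-/- replicates 15, 19 and 20. In Q175 replicates 3, 4, 9, 14 and 17 it was at 42.2, 49.1, 25.2, 178 and 237, and in Q175;Tyrobp-/- replicates 5, 11, 12, 13 and 16 at 2.23, 3.37, 4.44, 0 and 15.8. As for Lpl, each null sample was below each intact sample of its Htt genotype, WT replicate 6 was the lowest intact sample, and replicate 17 the highest Q175 sample. WT replicate 6, with 11 reads, was just above Tyrobp-/- replicate 15, with 9, and below Q175;Tyrobp-/- replicate 16. The level without Tyrobp rested on few reads, 15 in the 3 Tyrobp-/- samples together and 33 in the 5 Q175;Tyrobp-/- samples, against 571 in WT and 530.0 in Q175. Gm26902, a non-coding gene on the other strand, overlaps 159 exonic bases of Ch25h, and since the libraries keep no strand its 54 counts over all samples and the 1149 of Ch25h cannot be fully told apart.

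With the Htt genotype as a term and all 18 samples in the fit, edgeR's quasi-likelihood test gave a log2 fold change of -4.41 for Ch25h in null against intact samples (SE 0.647, adjusted p = 0.00265) and of -2.53 for Lpl (SE 0.433, adjusted p = 0.0129), that is 21.3-fold and 5.80-fold lower. These 2 of the 9 genes tested were called at an FDR of 0.1, both lower, where 30 of all 18613 genes tested were called (0.161%), 23 of them lower (0.124%). By p Ch25h was 10th and Lpl 17th of the 18613. Ch25h reached the 1 CPM needed for testing only in intact samples, so its entry into the deletion tests depended on its level there. The members' median log2 fold change was -0.12, beside -0.02 over all genes. Both calls held in each of the 18 fits that left out 1 sample (Ch25h between -4.95 and -4.13, adjusted p up to 0.0111, and Lpl between -2.69 and -2.30, adjusted p up to 0.062). They also held with sex, with the score of astrocyte, neuron and oligodendrocyte markers (the non-microglial score) and with the border-associated macrophage level as a term, where the adjusted p was at most 0.0258 for Ch25h and 0.0473 for Lpl over all 12 other settings. Without the 3 samples of highest astrocyte level Ch25h was at -4.06 and Lpl at -2.42.

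Tested on each Htt genotype alone, the 2 genes were lower in the null samples without passing the adjusted threshold by edgeR. In Q175;Tyrobp-/- against Q175 microglia the log2 fold change was -4.26 for Ch25h (SE 0.814, adjusted p = 0.335) and -1.91 for Lpl (SE 0.40, adjusted p = 0.392). In this comparison edgeR called 2 of 18059 genes (0.0111%), none of them a member. In Tyrobp-/- against WT it was -4.57 for Ch25h (SE 0.912) and -3.40 for Lpl (SE 0.645), with an adjusted p of 0.565 for each, where 4 of 18017 genes were called (0.0222%), again no member. The endothelial and mural level, the geometric mean of 12 markers, was also lower without overlap in the first comparison, between 40.4 and 57.0 in Q175;Tyrobp-/- and between 61.1 and 79.4 in Q175 samples, although the summed counts of these markers overlapped (1242 to 1607 and 1428 to 2127), and its part in the result was not tested. By unadjusted p Ch25h was 10th and Lpl 20th of all genes on the Q175 background, and Lpl 9th and Ch25h 12th on the WT background. DESeq2, the tool named in the methods, called both genes and no other member in each comparison: its adjusted p was 2.66e-05 for Ch25h and 0.00193 for Lpl on the Q175 background, where it called 0.227% of genes, and 1.28e-05 and 3.08e-06 on the WT background, where it called 0.932%. In the fit of all samples DESeq2 called 0.811% of genes, among them Ch25h and Lpl alone of the members.

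The comparison of Tyrobp-/- with WT and that of Q175;Tyrobp-/- with Q175 share no sample. Ch25h and Lpl were below the intact group without overlap in both, which held for 15 of 17463 genes tested in both (0.0859%), after 2.33% of genes in the first and 0.393% in the second. No other member was without overlap in either. For Ch25h against WT the gap was narrow, with 11 reads in the lowest WT sample and 9 in the highest Tyrobp-/- sample. With the border-associated macrophage level as a term, which separates Tyrobp-/- from WT samples, Lpl was at -3.14 and Ch25h at -3.58 on the log2 scale against WT, with an adjusted p of 1.0 in a fit that called no gene. WT replicate 6 was the intact sample lowest in both genes and highest in the monocyte and neutrophil level (182, against 4.58 to 41.6 in the other WT samples). Leaving out this lowest sample widened the edgeR differences to -3.68 for Lpl and -4.87 for Ch25h (adjusted p = 0.0236 and 0.0139). Of the 8 fits that left out 1 sample, only this fit called either gene. In the others the adjusted p was between 0.183 and 0.936 for Lpl and between 0.187 and 0.983 for Ch25h. The monocyte and neutrophil level was 57.1, 121 and 168 in the Tyrobp-/- samples, so that without WT replicate 6 it too separated them from WT. The part of these cells in the levels was not tested.

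The log2 fold change of Lpl by the deletion was 1.56 less negative on the Q175 background (95% interval from 0.0147 to 3.10, unadjusted p = 0.0481, adjusted p = 0.716 in edgeR's interaction test over all 18 samples). For Ch25h the interaction was 0.38, with an interval from -2.34 to 3.11 (adjusted p = 0.947). Over all genes the interaction test called 0 of 18613 (0.0%) by edgeR, 6.01% at an unadjusted p under 0.05, and 2 genes (0.0107%) by DESeq2, so that the interaction passed the adjusted threshold for neither gene. With sex as a term it was 1.91 for Lpl and 1.82 for Ch25h.

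**Figure D2:**
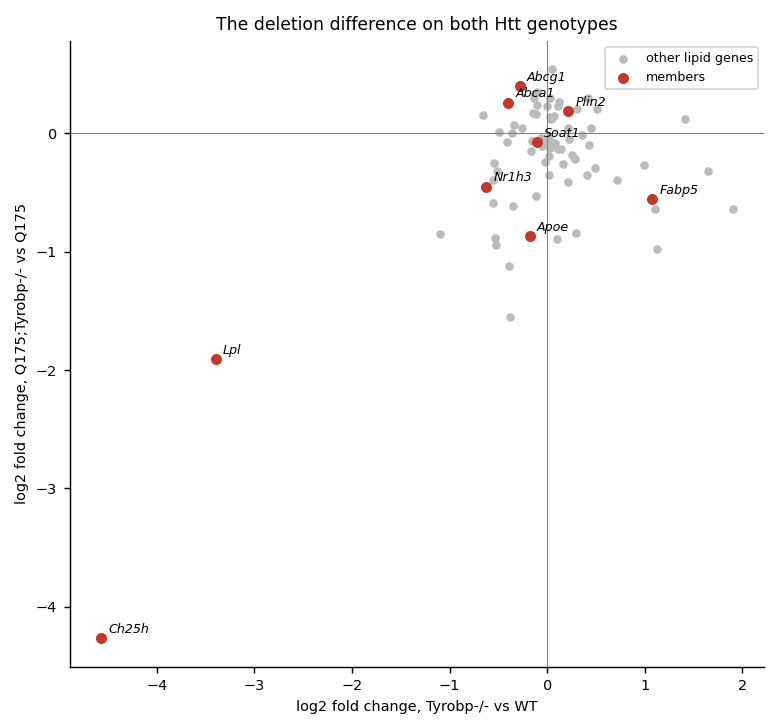
Log2 fold change of Tyrobp-/- against WT (horizontal) and of Q175;Tyrobp-/- against Q175 (vertical) for the 9 members tested (red, named) and 67 other lipid genes tested (grey), by edgeR. Lpl at -3.40 and -1.91 and Ch25h at -4.57 and -4.26 lie alone in the lower left, and the other genes lie between -1.55 and 1.90 on both axes.

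**Figure D3:**
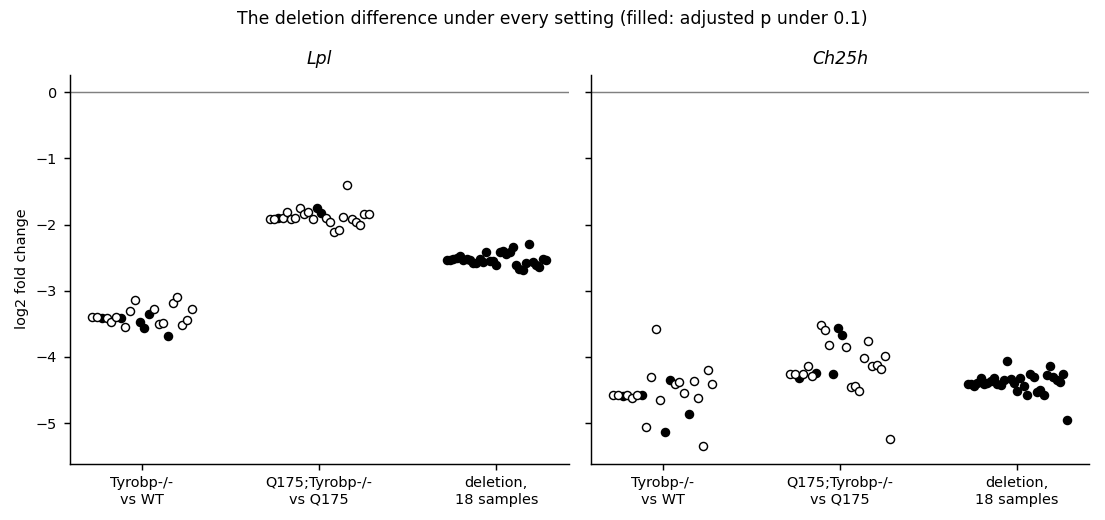
Log2 fold change of Lpl (left) and Ch25h (right) by the deletion on the WT background, on the Q175 background and in the fit of all 18 samples, each point being 1 setting of the analysis or 1 sample left out, filled where the adjusted p was under 0.1. All points are below 0, and those of the 18-sample fit are filled throughout.

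Between Q175 and WT microglia neither gene passed the test. Lpl was at -0.83 on the log2 scale (95% interval from -2.03 to 0.36, adjusted p = 0.967) and Ch25h at -0.29 (from -1.75 to 1.18, adjusted p = 0.999). A term for sex brought these to -1.48 and -1.38 and one for the non-microglial score to -2.07 and -2.46, none of them past the threshold. Of 25 pairs of a Q175 and a WT sample, Q175 was higher in 7 for Lpl and in 11 for Ch25h. Within Q175, replicates 14 and 17 held 178 and 237 normalized counts of Ch25h and the other 3 no more than 49.1. No member was called by edgeR, which called 0 of 18266 genes (0.0%), nor by DESeq2, which called 1.28%.

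Apoe, the main apolipoprotein of the brain and made by astrocytes as well as by microglia, lies on chromosome 7 from 19696109 to 19699188, 10.72 Mb from Tyrobp. WT replicates 1, 2, 6, 7 and 8 held 3964, 6720, 3192, 11079 and 8812 normalized counts of Apoe, and Tyrobp-/- replicates 15, 19 and 20 held 3617, 4805 and 9401. Q175 replicates 3, 4, 9, 14 and 17 held 8320, 3100, 3739, 17618 and 15562, and Q175;Tyrobp-/- replicates 5, 11, 12, 13 and 16 held 8072, 2520, 3463, 5513 and 6416. The 4 groups overlapped, and only Q175 replicates 14 and 17 stood above all samples of the other groups. In edgeR the log2 fold change was 0.51 in Q175 against WT (95% interval from -0.53 to 1.55, adjusted p = 0.999), -0.87 in Q175;Tyrobp-/- against Q175 (from -1.91 to 0.17, adjusted p = 0.533) and -0.18 in Tyrobp-/- against WT (from -1.15 to 0.79, adjusted p = 0.999). In the fit of all samples the deletion gave -0.59 (SE 0.356, adjusted p = 0.674).

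The samples of highest astrocyte level in the 3 groups other than WT also held the most Apoe of their groups. Tyrobp-/- replicate 20 and Q175;Tyrobp-/- replicate 5 were the highest of their groups in both, and Q175 replicate 14 the highest of all samples. Apoe was high at lower astrocyte levels too: Q175 replicate 17 had nearly as much as replicate 14 at an astrocyte level of 937, near the middle of its group, and WT replicate 7 held 11079 normalized counts at a level of 604, more than Tyrobp-/- replicate 20 at 2059. These highest samples of Q175, Tyrobp-/- and Q175;Tyrobp-/- mice were all female, as was WT replicate 7, the highest of WT and its only female sample. Females were also the lowest in Tyrobp-/- (replicate 15) and Q175 (replicate 4). The parts of astrocyte RNA and of sex in the Apoe level were not tested. Adding the non-microglial score to the fit brought the difference between Q175 and WT to -1.24 on the log2 scale, and without Q175 replicate 14 it was 0.17. With sex as a term it was -0.31. In Q175;Tyrobp-/- against Q175 it kept its sign in all 13 settings, from -0.90 to -0.14. Apoc1, its neighbour at 19689481 to 19692660, was read between 2 and 15 times per sample, with 1.48 to 16.7 normalized counts, and like Apoe was highest in Q175 replicate 14.

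Fabp5, the fatty acid carrier, was at 268, 317, 239.7, 229.9 and 253 normalized counts in WT replicates 1, 2, 6, 7 and 8 and at 348, 302 and 1000.2 in Tyrobp-/- replicates 15, 19 and 20. It was at 289.9, 418, 227, 767 and 544 in Q175 replicates 3, 4, 9, 14 and 17 and at 450.2, 222, 214, 298 and 344 in Q175;Tyrobp-/- replicates 5, 11, 12, 13 and 16. The 3 samples of highest astrocyte level were the highest of their groups in Fabp5, while in WT replicate 8, with the highest level of that group (638), held less than replicate 2 (450.0). The groups overlapped. In edgeR Fabp5 was 0.77 higher on the log2 scale in Q175 than in WT (unadjusted p = 0.0196, adjusted p = 0.594) and 1.07 higher in Tyrobp-/- than in WT (unadjusted p = 0.0134, adjusted p = 0.610). In Q175;Tyrobp-/- against Q175 it was at -0.56 (adjusted p = 0.533), and its interaction of -1.58 had an adjusted p of 0.716. Without Tyrobp-/- replicate 20 the difference from WT was 0.27, and adding the non-microglial score brought the Q175 difference from WT to -0.37. None of 13 other settings, sex as a term among them, called that Q175 difference. In each group other than WT every female sample held more Fabp5 than every male sample. In WT the only female, replicate 7, held the least. The part of sex in the Fabp5 level was not tested.

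**Figure D4:**
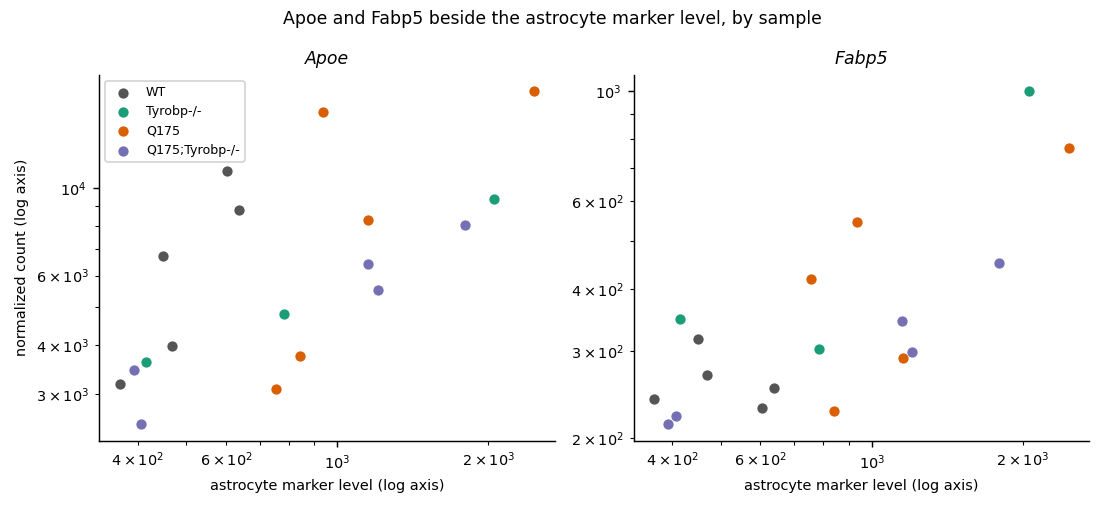
Normalized counts of Apoe (left) and Fabp5 (right) against the astrocyte marker level in each sample, both axes logarithmic, coloured by group. The samples with an astrocyte level of 1796 or more, from Q175, Tyrobp-/- and Q175;Tyrobp-/- mice, held the highest Apoe and Fabp5 counts of their groups.

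The exporters Abca1 and Abcg1 did not pass the test in any comparison. Abca1, which loads cholesterol onto lipid-poor apolipoproteins, ran from 8886 to 19736 normalized counts in WT (median 10316), from 6056 to 12782 in Tyrobp-/- (median 10590), from 7624 to 14390 in Q175 (median 10183) and from 10289 to 14269 in Q175;Tyrobp-/- microglia (median 13784). The groups overlapped, with WT replicates 7 and 8 highest and Tyrobp-/- replicate 20 lowest. The deletion gave -0.05 over all 18 samples (95% interval from -0.46 to 0.37, adjusted p = 0.962), so that a change by 1 on the log2 scale in either direction lay outside this interval. On each Htt genotype alone, a change by -1 lay within the interval against WT (from -1.14 to 0.34). It lay outside that on the Q175 background (from -0.16 to 0.67). The interaction was 0.73 (unadjusted p = 0.0607, adjusted p = 0.716 by edgeR).

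Abcg1, which passes cholesterol to lipoprotein particles, was between 1791 and 4952 normalized counts in WT, between 1590 and 3152 in Tyrobp-/-, between 1649 and 3488 in Q175 and between 2488 and 3912 in Q175;Tyrobp-/- microglia. WT replicates 7 and 8 were the highest and Tyrobp-/- replicate 20 the lowest here too. The deletion gave 0.08 over all samples (from -0.37 to 0.54, adjusted p = 0.940). In Q175;Tyrobp-/- against Q175 both exporters were at positive values, 0.26 for Abca1 and 0.39 for Abcg1 (adjusted p = 0.567 and 0.533), with the Q175;Tyrobp-/- sample higher in 18 and 21 of 25 pairs. Against WT, Tyrobp-/- samples were at -0.40 and -0.28 (adjusted p = 0.958 and 0.999).

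Nr1h3, the receptor LXR alpha, was low in all groups, at 49.1 ± 15.7 (SD, n = 5) normalized counts in WT, 32.0 ± 13.9 (n = 3) in Tyrobp-/-, 63.6 ± 24.0 (n = 5) in Q175 and 46.9 ± 12.6 (n = 5) in Q175;Tyrobp-/- microglia, from 20.7 in Tyrobp-/- replicate 19 to 103 in Q175 replicate 4. The deletion gave -0.55 over all samples (SE 0.248, unadjusted p = 0.0390, adjusted p = 0.535). Without the 3 samples of highest astrocyte level it was called, at -0.80 (adjusted p = 0.0979), in a fit that called 1663 genes in place of 30. An overlap of 34 exonic bases with Gm13783 on the same strand leaves a part of its reads uncertain.

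Storage genes varied least. Soat1, the esterifying enzyme, was between 1839 and 2716 normalized counts over all 18 samples, with a deletion difference of -0.12 (95% interval from -0.31 to 0.07, adjusted p = 0.763). Plin2, the droplet coat, was between 173 and 366, with both extremes in Q175 microglia, and a deletion difference of 0.17 (from -0.10 to 0.44, adjusted p = 0.759). In Q175 against WT, Soat1 was at -0.13 and Plin2 at -0.05 (adjusted p = 0.999 for each).

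**Figure D5:**
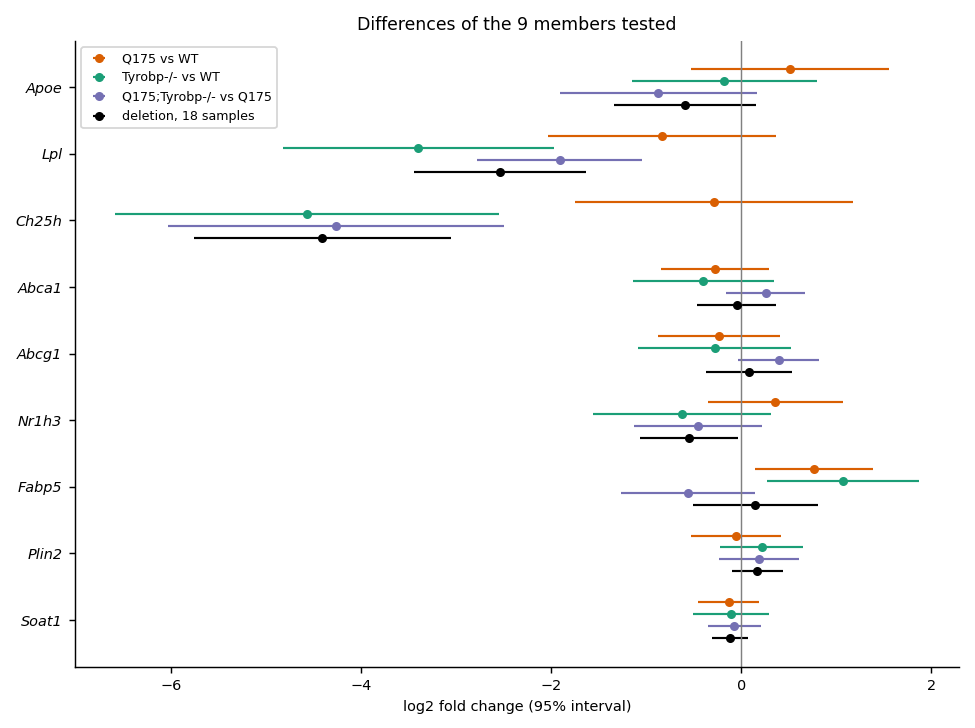
Log2 fold changes by edgeR with 95% intervals for the 9 members tested, in Q175 against WT, Tyrobp-/- against WT, Q175;Tyrobp-/- against Q175, and for the deletion over all 18 samples with the Htt genotype as a term. The deletion intervals of Lpl and Ch25h lie wholly below 0, at -2.53 and -4.41 over all samples, and the narrowest intervals are those of Soat1.

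At an unadjusted p under 0.05, 1 of the 9 members passed in Q175 against WT (11.1%, beside 6.24% of all genes), 2 in Q175;Tyrobp-/- against Q175 (22.2%, beside 8.01%), 3 in Tyrobp-/- against WT (33.3%, beside 6.82%) and 3 for the deletion over all samples (33.3%, beside 8.81%). They were Fabp5 in the first, Ch25h and Lpl in all 3 deletion comparisons, Fabp5 against WT and Nr1h3 over all samples. The members and the lists that follow were chosen with earlier results of these data known. Their shares are therefore a description and no test.

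Of 75 further lipid genes in 6 lists (lipoprotein receptors, other apolipoproteins and lipoprotein enzymes, LXR partners and targets, oxysterol enzymes and receptors, fatty acid binding and activation, and lipid droplets and lipases), 67 were tested and edgeR called none in any comparison. At an unadjusted p under 0.05, 8 were higher and 0 lower in Q175 than in WT (11.9%, beside 6.24% of all genes, of which 1000 were higher and 140 lower). For the deletion, 1 was higher and 7 lower on the Q175 background (11.9%, beside 8.01%, with 623 higher and 823 lower) and 6 higher and 4 lower on the WT background (14.9%, beside 6.82%, 660 of 1228 being higher). Over all samples 0 were higher and 9 lower (13.4%, beside 8.81%, with 260 higher and 1379 lower). The median log2 fold change over all samples was -0.05 for these genes, as against -0.02 for all genes tested.

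Srebf1, the transcription factor of fatty acid synthesis and itself an LXR target, was at -0.49 on the log2 scale for the deletion over all samples by edgeR (SE 0.140, adjusted p = 0.325). Of the 12 lipoprotein receptor genes, 5 were at an unadjusted p under 0.05 in this fit (41.7%, beside the 8.81% of all genes), all lower as most genes at that p were, and 1 of the 12 LXR partners and targets was too (8.33%).

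Clu, Cyp7b1 and Acsl3, also among the genes of the lists with the smallest p, had it between Q175 and WT, where none passed the edgeR threshold. Clu, the apolipoprotein clusterin, was at 1.92 on the log2 scale (SE 0.444). Cyp7b1, whose enzyme acts on 25-hydroxycholesterol, was at 1.40 (SE 0.368), and Acsl3, an acyl-CoA synthetase, at 0.89 (SE 0.233). Each had an adjusted p of 0.345 by edgeR. DESeq2 called all 3 (adjusted p = 0.0104, 0.0591 and 0.0608), but with sex as a term it called no gene at all in this comparison (394 at an unadjusted p under 0.05), with Clu at 1.36, Cyp7b1 at 0.97 and Acsl3 at 0.69. Astrocytes express these genes too, and the Q175 samples had higher astrocyte levels than the WT samples without overlap. With the non-microglial score in the fit Clu was at 0.52, Cyp7b1 at 0.34 and Acsl3 at -0.090, and DESeq2 with that term called none of them. The part of astrocyte RNA in these values was not tested.

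Genes most like Apoe, Lpl and Ch25h over the 18 samples were sought by Pearson's r of log2 CPM among those with a mean of at least 1, as a description. The samples share their group structure, depth and content of other cells. For Ch25h they were Cst7 (0.946), St8sia6 (0.940) and Spp1 (0.899), with Lpl in 5th place (0.883) and Tyrobp in 11th (0.848). For Lpl they were Pdcd1 (0.901), St8sia6 (0.898) and Spp1 (0.883). For Apoe they were Acot1 (0.884) and Ank (0.864), and Lpl came 1100th (0.497). Apoe had a value of -0.05 with Abca1 and of 0.07 with Abcg1.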

How the data were processed

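Microglial RNA was sequenced in 18 samples. As described in the methods, the authors isolated CD11b-positive cells with magnetic beads, made non-directional SMART-Seq v4 libraries from RNA with an integrity number above 8, aligned reads with STAR and counted them with featureCounts. The deposited values are raw counts per Ensembl gene, not normalized. The labels name the human build GRCh38 and 2 striata per sample, and the methods the mouse build GRCm38 and 1 striatum. All 55536 identifiers are those of GENCODE M21 (GRCm38), used for symbols, positions and exonic lengths. Another 2 columns of the table, with no sample in the labels, were not used. Amplified reads without molecular identifiers are not independent molecules, and the depth of 11260410 to 29771983 counts leaves Ch25h in null samples and Apoc1 resting on a few reads.

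Members, lists and tests were chosen with earlier results of these data known. In each comparison genes that reached 1 CPM in any sample were tested with edgeR 4.0.16 (R 4.3.3; TMM, quasi-likelihood, Benjamini-Hochberg FDR of 0.1 over all genes tested), pairwise on the samples of both groups, and over all 18 samples for the interaction and for the deletion with the Htt genotype as a term. Normalized counts were scaled by TMM over all 18 samples. Genes named beyond the members are Tyrobp, the lipid genes called, the 5 of the other lists with the smallest p, and for Apoe, Lpl and Ch25h the 3 most alike genes by Pearson's r of log2 CPM (prior count 2). Of these, 2 are not reported here. Alternatives were DESeq2 1.42.0, scaling by edgeR's relative log expression factors or by total counts, and filtering by filterByExpr or not at all. Others were a stricter FDR of 0.05, a single fit over the 4 groups, and leaving out each sample. Terms were added for sex, for a score of astrocyte, neuron and oligodendrocyte markers and for border-associated macrophage markers. DESeq2 with a term, and leaving out the 3 samples of highest astrocyte level, were added after seeing the data. Promoter windows are those of RefSeq for GRCm38.p6.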

Additional observations from a re-analysis of the deposited data

Results flagged for a closer look

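Among the 30 sets of 4 to 10 samples of a group in which a member was examined for a sample far from the others, 1 stood out, where chance would give about 1 in 20. Ch25h was at 15.8 normalized counts in Q175;Tyrobp-/- replicate 16, and the other 4 samples of that group were between 0 and 4.44, so that the gap made up 0.719 of the range of the group. Without this sample the log2 fold change of Q175;Tyrobp-/- against Q175 was -5.24 in place of -4.26, and that of the deletion over all samples -4.95 in place of -4.41. The cause was not tested.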

How the results depend on the processing

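No paired analysis was possible because the groups share no replicate number. Of 630 log2 fold changes of the 9 members tested and the 5 other lipid genes under other settings, 578 kept their direction and their side of the threshold, 26 came to pass it, 26 changed sign and 0 lost a call. Only Lpl and Ch25h for the deletion over all samples had a call to lose, under 12 other settings each. All 80 values of the members' group means under the other scalings lay within 1 SD of those given. Scaling by total counts moved the median over all genes from -0.05 to 0.08 in Q175;Tyrobp-/- against Q175 and from 0.04 to 0.15 in the interaction. The calls of Lpl and Ch25h for the deletion over all 18 samples held under every other setting and with each sample left out.

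The number of genes called by edgeR depended on the tool. DESeq2 gave 234 genes in Q175 against WT in place of 0, 41 in Q175;Tyrobp-/- against Q175 in place of 2, 168 in Tyrobp-/- against WT in place of 4, 2 in the interaction in place of 0 and 151 for the deletion over all samples in place of 30. With sex as a term DESeq2 gave 0, 18, 38, 2 and 137 in the same order, and with the non-microglial score 11, 27, 778, 11 and 207 in all 5. In Q175;Tyrobp-/- against Q175 edgeR gave 1 gene at an FDR of 0.05, with sex, with the score, with the border-associated macrophage level as a term, and without the 3 samples of highest astrocyte level, 9 with no filter and 14 in 1 fit over all groups. In Tyrobp-/- against WT it gave 2 with the score, 0 with the border-associated macrophage level (394 at an unadjusted p under 0.05), 15 with no filter and 8 in 1 fit over all groups. Without the 3 samples of highest astrocyte level the deletion over all samples gave 1663 genes. Leaving out 1 sample gave between 0 and 0 genes in Q175 against WT and the interaction, between 1 and 5 in Q175;Tyrobp-/- against Q175, between 2 and 8 in Tyrobp-/- against WT and between 24 and 64 for the deletion over all samples. The causes were not tested.

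The signs that changed belong to log2 fold changes that had passed no threshold. Apoe in Q175 against WT became -0.31 with sex, -1.24 with the score and -0.18 with the border-associated macrophage level as a term, and -0.34 and -1.27 by DESeq2 with sex and with the score. The interaction of Apoe became 0.19, 0.51, 0.52, 0.16 and 0.49 under the same settings. Apoe in Tyrobp-/- against WT became 1.10 with the border-associated macrophage level and ran from -0.72 to 0.080 when 1 sample was left out. Nr1h3 in Q175 against WT became -0.019 with sex and -0.037 by DESeq2 with sex. Fabp5 in Q175 against WT became -0.37 with the score by either tool, in Q175;Tyrobp-/- against Q175 0.020 with the border-associated macrophage level, and for the deletion over all samples -0.17 without the 3 samples of highest astrocyte level. The same samples left out gave 0.069 for Abca1 over all samples, and -0.13 for Plin2 and -0.011 for Soat1 in the interaction. Scaling by total counts gave 0.046 for Abca1 over all samples and 0.065 for Soat1 in Q175;Tyrobp-/- against Q175, where the border-associated macrophage level gave 0.046, and no filter gave -0.038 for the interaction of Plin2. Acsl3 in Q175 against WT became -0.090 with the score and -0.10 by DESeq2 with it. With 1 sample left out, the interaction ran from -0.59 to 1.14 for Ch25h, from -0.027 to 0.62 for Nr1h3, from -0.13 to 0.16 for Plin2 and from -0.024 to 0.17 for Soat1, the deletion over all samples from -0.12 to 0.13 for Abca1 and from -0.23 to 0.33 for Fabp5, and Q175 against WT from -0.21 to 0.057 for Plin2.

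Ch25h without Tyrobp and Apoc1 were read a few times per sample, and the 3 Tyrobp-/- samples limit that group.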
